A study of Rattus norvegicus with 46 samples.

Results

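Kidneys of rats premedicated with valproate (VPA) were set against kidneys of rats premedicated with dexamethasone (Dex), both taken 3 h after ischemia-reperfusion (3 h post-IR). The 9 arrays were chosen by their labels alone, 5 of VPA rats and 4 of Dex rats, out of 46 arrays in all, each from 1 animal with nothing pooled. VPA was injected at 150 mg/kg and Dex at 3 mg/kg, intraperitoneally, 30 min before surgery, and 5 Vehicle rats at 3 h post-IR had received saline instead. All 3 groups were male Wister rats (the labels' spelling) of 200 to 300 g that went through 45 min of warm ischemia of the left kidney under isoflurane, ketamine and xylazine, removal of the right kidney at reperfusion, and anesthesia kept up until sacrifice, so the left kidney was the only one during reperfusion. The 5 naïve rats were neither injured nor treated, and were anesthetized just before sacrifice. They so differ from the others in the length of anesthesia and in surgery as well as in ischemia. The comparison asks how 2 drugs given for the same purpose, to soften renal injury, differ in the transcripts of the kidney early in reperfusion.

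VPA is a short fatty acid used against epilepsy and an inhibitor of class I histone deacetylases, the enzymes that take acetyl groups off histones. Dex is a synthetic glucocorticoid. It binds the glucocorticoid receptor, a transcription factor that then enters the nucleus, activates genes such as Tsc22d3, Fkbp5 and Per1, and represses many inflammatory genes. Early reperfusion of the kidney is known for a burst of immediate-early transcription factors (the Fos, Jun, Egr and Atf3 genes), for heat shock proteins, and for markers of tubular injury such as Havcr1 (kidney injury molecule 1) and Lcn2 (lipocalin 2).

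Values are array signals on a linear scale, and tests were run with limma on log2(signal + 16) over the 14607 of 29214 probe sets that varied most (by SD) across the 46 arrays. Calls needed both a 2-fold change and a Benjamini-Hochberg adjusted p under 0.05, and differences are VPA minus Dex. The arrays of the 2 groups were alike in brightness, with median signals of 68.5 to 78.6 in VPA kidneys and 69.8 to 72.4 in Dex kidneys, and each array correlated with the others of its group at a mean r of 0.946 to 0.96 in VPA kidneys and 0.961 to 0.97 in Dex kidneys. Vehicle animal 1 stood apart from its group, with a mean r of 0.843 and a median signal of 87.5. Kidney markers were bright in both groups. The 15 proximal tubule markers measured summed to 42200 to 45200 in VPA kidneys and 40200 to 45400 in Dex kidneys.

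Within the VPA group, animals 1 and 3 stood apart from the other three VPA animals in their early response genes. The summed signal of 35 immediate-early transcription factors was 8690, 27000, 8840, 29100 and 27200 in VPA animals 1 to 5, against 28600, 27600, 33700 and 27300 in Dex animals 1 to 4, 15900 to 30800 in Vehicle animals and 6850 to 8700 in naïve animals. VPA animals 1 and 3 thus lay at or just above the naïve range and the other three VPA animals within the range of Dex and Vehicle animals. Genes named below as passing between VPA and Dex at 3 h that no longer passed with both left out are given with their values without them, a choice made after seeing these data.

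Between VPA and Dex kidneys, 63 probe sets were called, 59 lower and 4 higher in VPA, which is 0.431% of those tested (0.404% lower and 0.0274% higher). The median difference of all probe sets tested was 0.045 on the log2 scale. Without the fold threshold 148 were lower and 32 higher, 1.23% in all. Of the 63, 57 carried 1 gene symbol (56 genes), 3 carried several and 3 carried none. The signals of VPA and Dex animals did not overlap for 59 of the 63, whereas 817 of all 14607 probe sets tested (5.59%) did not overlap. The exceptions were Ddit4, Socs1, Thbd and 1 probe set without a symbol. The 63 were chosen for their difference in these same arrays, so little overlap follows from that choice and is not added evidence. With VPA animals 1 and 3 left out, 28 probe sets were called (1 higher, 27 lower, 0.192% of those tested), of which 26 were among the 63. Leaving out single arrays gave 42 to 84 calls, with 42 without VPA animal 1 or Dex animal 4, and 33 of the 63 stayed called whichever 1 of the 9 arrays was left out.

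**Figure D1:**
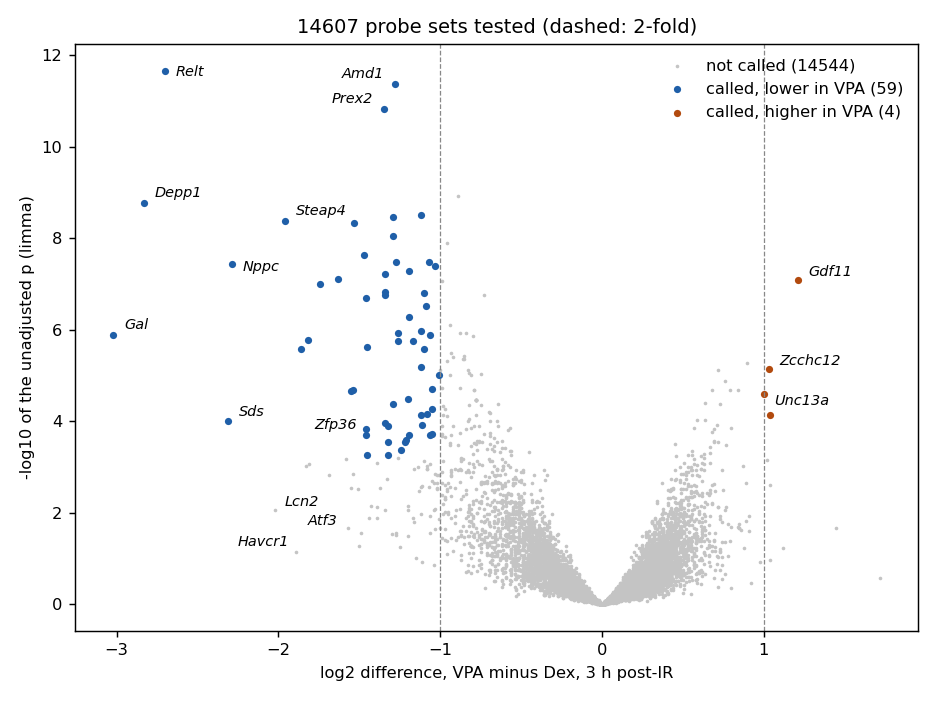
Each point is 1 of 14607 probe sets, with the log2 difference between VPA and Dex kidneys at 3 h post-IR on the x axis and minus log10 of the unadjusted limma p on the y axis. Blue points are the 59 probe sets called lower in VPA, red points the 4 called higher, and dashed lines mark 2-fold; Havcr1, Lcn2 and Atf3 lie far to the left but low, since they varied among animals.

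Promoter windows from RefSeq (GRCr8 assembly), 250 bases before to 50 bases after the start of each gene, were found for 45 of the 56 called genes (47 windows). They are shown because the glucocorticoid receptor, the target of Dex, binds DNA as a dimer at paired sites, for which ACANNNTGT is a short common core. That core, which reads the same on both strands, was present in 6 of the 47 windows (12.8%), of Apold1, Fam107a, Nfil3, Notch4, Synm and Tsc22d3, and in 6.86% of all 33469 windows. The AP-1 motif TGANTCA, likewise the same on both strands, was present in 1 window (Notch4, 2.13%) and in 7.33% of all. TGACG, a short site of factors that answer to cyclic AMP, was found on either strand in 14 windows (29.8%) and in 21.2% of all. A match is a description of these letters and not evidence of binding. The windows of Gal, the gene with the greatest fall, and of 3 genes with the ACANNNTGT core are given below, 5′ to 3′ on the gene's strand. Tsc22d3 had windows at several start sites. The one with the core is given, and its other windows lacked the core. Capitals mark TGACG in Gal and ACANNNTGT in the others, and none of these matches overlapped another of the 3 motifs.
Gal (chr1:210084523-210084822, minus strand): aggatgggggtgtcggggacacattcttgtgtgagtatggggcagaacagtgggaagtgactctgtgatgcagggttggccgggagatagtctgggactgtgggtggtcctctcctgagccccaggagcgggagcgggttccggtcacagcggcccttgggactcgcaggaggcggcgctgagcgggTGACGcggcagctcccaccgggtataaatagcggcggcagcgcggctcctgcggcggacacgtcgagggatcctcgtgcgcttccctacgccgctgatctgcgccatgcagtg
Apold1 (chr4:169552349-169552648, plus strand): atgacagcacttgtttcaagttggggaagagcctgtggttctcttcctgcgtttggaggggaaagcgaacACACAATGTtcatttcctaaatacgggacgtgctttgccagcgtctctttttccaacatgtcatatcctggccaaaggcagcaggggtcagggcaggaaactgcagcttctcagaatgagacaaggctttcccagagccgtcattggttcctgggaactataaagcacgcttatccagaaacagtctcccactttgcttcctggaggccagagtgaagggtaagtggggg
Tsc22d3 (chrX:109065381-109065680, minus strand): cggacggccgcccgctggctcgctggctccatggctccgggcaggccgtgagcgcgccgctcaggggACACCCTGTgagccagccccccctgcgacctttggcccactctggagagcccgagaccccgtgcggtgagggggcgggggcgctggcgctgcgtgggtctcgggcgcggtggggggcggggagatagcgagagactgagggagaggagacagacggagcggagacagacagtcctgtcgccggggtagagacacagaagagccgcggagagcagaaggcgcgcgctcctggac
Fam107a (chr15:19046331-19046630, plus strand): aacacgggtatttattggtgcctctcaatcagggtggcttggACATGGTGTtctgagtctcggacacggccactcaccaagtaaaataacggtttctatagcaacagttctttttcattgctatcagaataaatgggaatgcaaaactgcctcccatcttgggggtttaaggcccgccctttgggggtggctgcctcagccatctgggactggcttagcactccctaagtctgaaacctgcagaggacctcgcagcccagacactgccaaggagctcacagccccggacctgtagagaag

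The marked letters began 63 bases before the start in Gal, 180 in Apold1, 183 in the window given for Tsc22d3 and 208 in Fam107a. Of these genes, Gal and Fam107a kept their calls with VPA animals 1 and 3 left out, while Apold1 (adjusted p = 0.11, limma) and Tsc22d3 (adjusted p = 0.091, limma) lost theirs.

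Secreted peptides were among the greatest differences. Gal, which encodes the neuropeptide galanin, had signals of 10.9, 14.4, 7.28, 7.91 and 19.5 in VPA kidneys, against 139, 137, 322 and 304 in Dex kidneys. Every Dex animal lay far above every VPA animal, and Vehicle animals (6.4 to 47.6) and naïve animals (5.44 to 14.2) lay near VPA. Gal was 8.13-fold lower in VPA on the log2(signal + 16) scale (log2 difference -3.02 ± 0.53 SE, adjusted p = 0.00052, limma). The VPA signals of Gal, as of Relt below, were below the lower quartile of their arrays, so the offset of 16 understates this fold. Nppc encodes C-type natriuretic peptide, a local vasodilator. Its signals were 45.2, 39.7, 27.8, 65.1 and 47.7 in VPA kidneys, against 332, 347, 163 and 306 in Dex kidneys, 31.4 to 60.6 in Vehicle kidneys and 8.41 to 14.9 in naïve kidneys (log2 difference VPA minus Dex -2.29 ± 0.34 SE, adjusted p = 3.6e-05). Nppc in VPA kidneys thus overlapped Vehicle and lay above every naïve animal. Edn1 encodes endothelin 1, a vasoconstrictor. Its signals were 44, 120, 48.7, 166 and 120 in VPA kidneys and 268, 365, 350 and 374 in Dex kidneys, with 122 to 239 in Vehicle kidneys (log2 difference -1.74 ± 0.27 SE, adjusted p = 6.9e-05). The lowest 2 values were those of VPA animals 1 and 3, and without these the difference was -1.24 (adjusted p = 0.015). Ccn2, or connective tissue growth factor, had 313, 979, 371, 658 and 756 in VPA kidneys against 1770, 1890, 2190 and 2350 in Dex kidneys (log2 difference -1.82 ± 0.33 SE, adjusted p = 0.00065), and missed the threshold without VPA animals 1 and 3 (-1.35, adjusted p = 0.076). These 4 genes were the called members of a list of 37 peptide hormones and growth factors measured and 32 tested (beside 0.431% of all probe sets tested). The list's median difference was -0.12 beside 0.05 over all 17245 genes. With both animals out, 3 remained called and the median was 0.04.

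**Figure D2:**
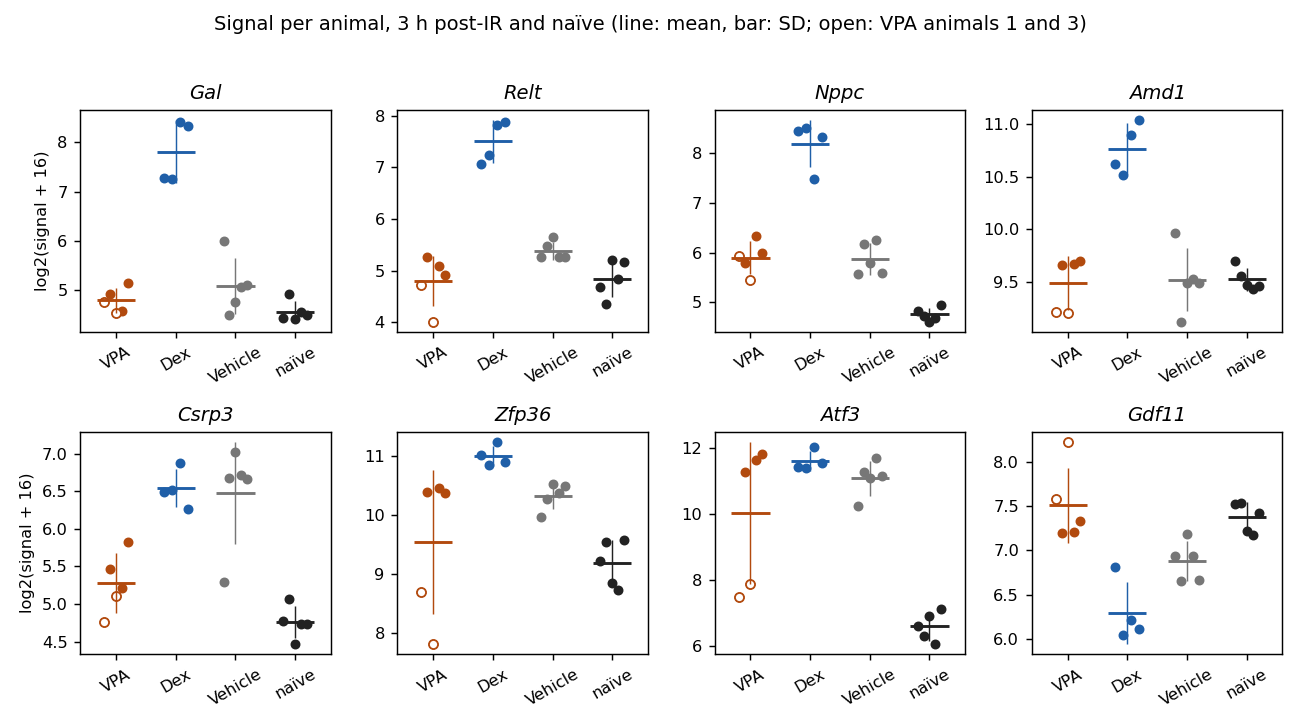
Each panel shows 1 gene, with log2(signal + 16) on the y axis and 1 point per animal in VPA (5), Dex (4), Vehicle (5) and naïve (5) kidneys; lines are means, bars SD, and open circles VPA animals 1 and 3. In Gal, Relt, Nppc and Amd1 the Dex animals stand above all others, in Csrp3 the VPA animals stand below the Dex animals and most Vehicle animals, and in Zfp36 and Atf3 the open circles carry the low VPA mean.

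The smallest p-values belonged to Relt and Amd1. Relt, a receptor of the tumor necrosis factor receptor superfamily, had 10.3, 22.6, 0.084, 18.2 and 14 in VPA kidneys, against 118, 135, 211 and 220 in Dex kidneys and 22.4 to 34.5 in Vehicle kidneys (log2 difference VPA minus Dex -2.70 ± 0.27 SE, adjusted p = 3.1e-08, limma). Amd1 encodes S-adenosylmethionine decarboxylase, which supplies the aminopropyl groups for spermidine and spermine. It had 574, 794, 570, 800 and 815 in VPA kidneys, against 1550, 1460, 1900 and 2080 in Dex kidneys, 540 to 986 in Vehicle kidneys and 673 to 815 in naïve kidneys (log2 difference -1.28 ± 0.13 SE, adjusted p = 3.1e-08). Vehicle and naïve animals lay near the VPA animals, and every Dex animal lay above them. Of 18 genes of polyamine and arginine metabolism measured (13 tested), Amd1 was the 1 called, beside 0.404% called lower of all probe sets tested. The median of this list was 0.01. Prex2 encodes an exchange factor for the GTPase Rac. Its signals were 125, 138, 166, 163 and 150 in VPA kidneys, against 416, 442, 340 and 418 in Dex kidneys and 164 to 323 in Vehicle kidneys (log2 difference -1.35 ± 0.15 SE, adjusted p = 7.5e-08). Depp1, an autophagy regulator and FOXO target, had 63.3, 203, 91.2, 134 and 175 in VPA kidneys and 792, 1170, 936 and 1050 in Dex kidneys, and among Vehicle kidneys 901 in animal 1 and 101 to 168 in the others (log2 difference VPA minus Dex -2.83 ± 0.37 SE, adjusted p = 4.9e-06). Steap4, a metalloreductase of the plasma membrane, had 178, 263, 253, 429 and 333 in VPA kidneys against 811, 1530, 959 and 1380 in Dex kidneys (log2 difference -1.96 ± 0.26 SE, adjusted p = 7.4e-06). All 5 of these genes stayed called with VPA animals 1 and 3 left out, with differences of -2.41 for Relt, -1.09 for Amd1, -1.33 for Prex2, -2.43 for Depp1 and -1.71 for Steap4.

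Metabolic enzymes and other genes with a rank among the 20 greatest falls followed. Sds, serine dehydratase, which feeds amino acid carbon into gluconeogenesis in the liver, had 26.9, 33.5, 41.5, 15.9 and 20.8 in VPA kidneys against 218, 82.3, 312 and 252 in Dex kidneys (log2 difference -2.31 ± 0.54 SE, adjusted p = 0.015, limma). Its call was lost without Dex animal 3 or Dex animal 4 and with VPA animals 1 and 3 left out (adjusted p = 0.075). None of 4 gluconeogenesis genes measured was called, and Pck1, the enzyme that commits to it, had back-transformed mean signals of 2110 in VPA and 2350 in Dex kidneys (adjusted p = 0.98). Tent5b, of a family of poly(A) polymerases, was called by both of its probe sets, and the brighter one had 19.5 to 39.8 in VPA kidneys and 88 to 144 in Dex kidneys (log2 difference -1.53 ± 0.21 SE, adjusted p = 7.4e-06). Cyp2c22, a cytochrome P450, had 18.8 to 33.6 in VPA kidneys and 47.1 to 141 in Dex kidneys (-1.46 ± 0.23 SE, adjusted p = 0.00011). Notch4, a Notch receptor known from endothelium, had 59.6 to 125 in VPA kidneys and 200 to 317 in Dex kidneys (-1.34 ± 0.20 SE, adjusted p = 5.1e-05). Lmntd1 (-1.63) and Wfdc16 (-1.45), whose roles are less known, were lower as well, with Wfdc16 at 10.8 in VPA animal 1 and 33.1 to 41.6 in the other VPA animals against 75.1 to 154 in Dex animals. Ly49si2 (-1.54, adjusted p = 0.0045) belongs to a family of near-identical killer cell lectin receptors, so its probes may read several members, and its call was lost without Dex animal 4 and with VPA animals 1 and 3 left out (-1.43, adjusted p = 0.089).

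Among genes outside the rule for naming, chosen after their values were seen, Gata6, a transcription factor, had 29.1, 32.1, 44.6, 18.9 and 31.5 in VPA kidneys against 84.7, 87.9, 97.4 and 123 in Dex kidneys (log2 difference -1.29 ± 0.18 SE, adjusted p = 1.3e-05, limma). Ppcs, an enzyme of coenzyme A synthesis, had 148 to 234 in VPA kidneys and 378 to 453 in Dex kidneys (-1.12 ± 0.15 SE, adjusted p = 7.2e-06), and with VPA animals 1 and 3 left out it was short of 2-fold (-0.98, adjusted p = 0.00095). The 17 other called genes with 1 symbol not described here were lower by 1.03 to 1.34 on the log2 scale. Their values by animal are part of the heat map of called probe sets, which also shows the naïve kidneys.

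**Figure D3:**
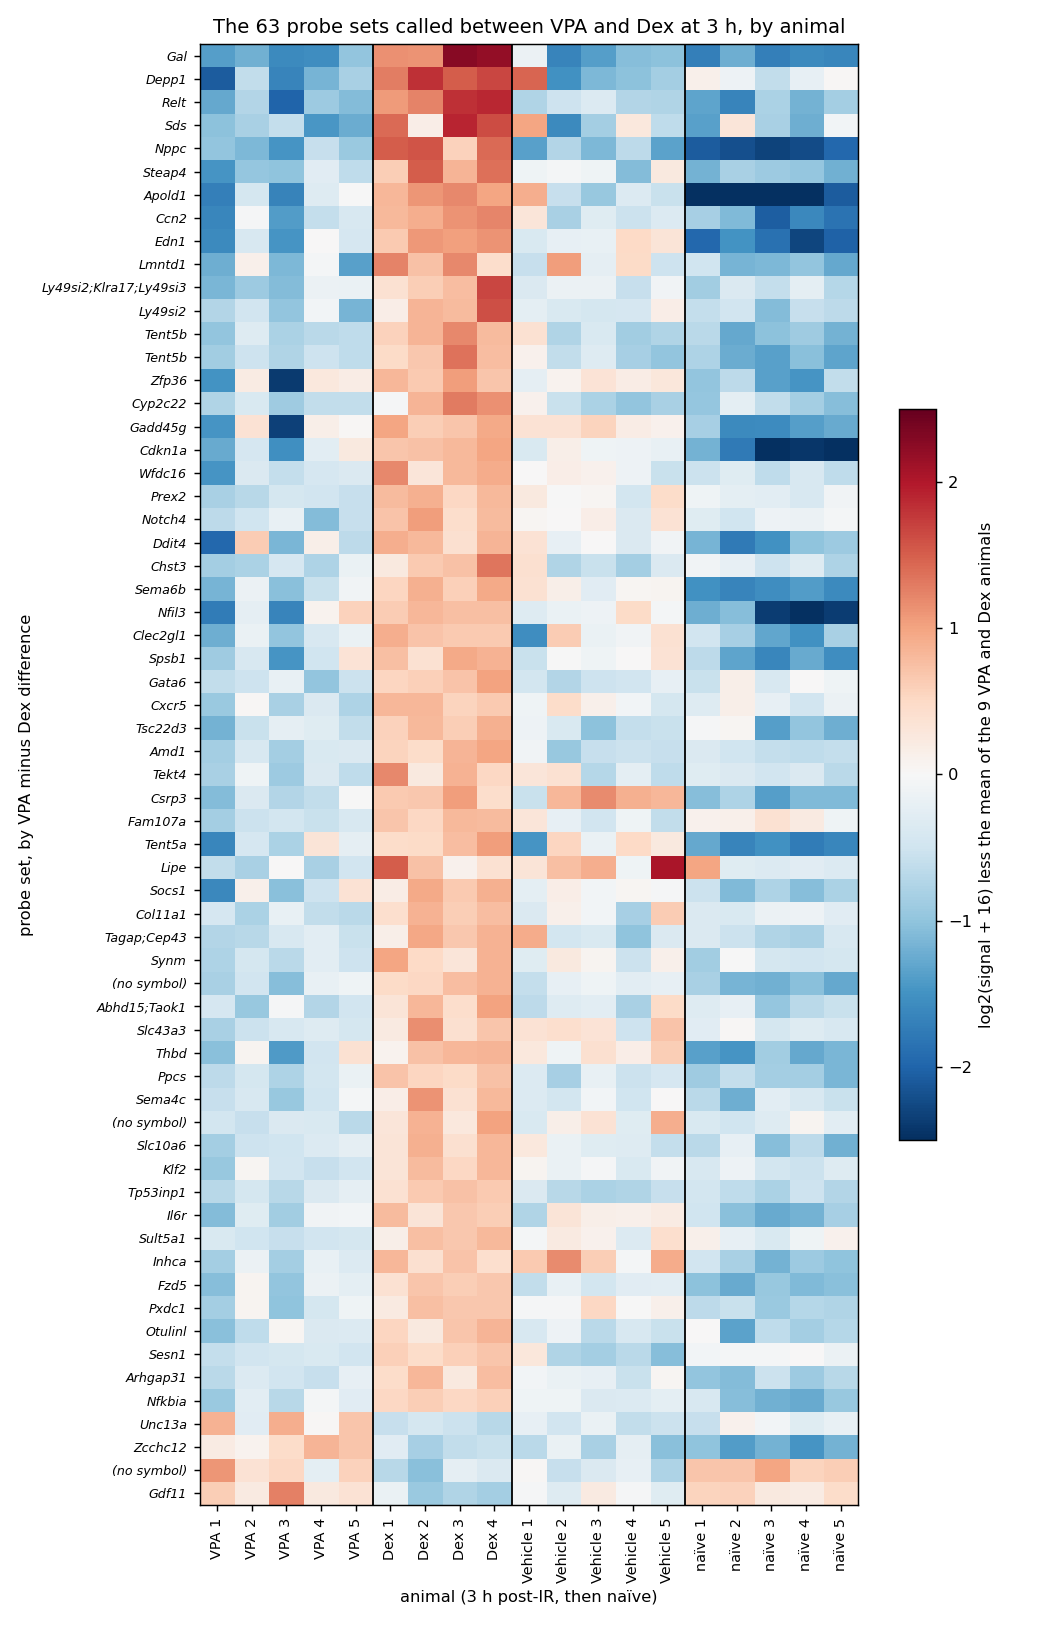
Rows are the 63 called probe sets from the greatest fall to the greatest rise, columns are single animals (VPA, Dex and Vehicle at 3 h post-IR, then naïve), and color is log2(signal + 16) less the mean of the 9 VPA and Dex animals. The 4 Dex columns are mostly red in the first 59 rows, VPA animals 1 and 3 are the darkest blue of the VPA columns in rows such as Zfp36, Gadd45g, Nfil3 and Thbd, and the last 4 rows show the reverse.

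For context, each drug was also set against Vehicle at 3 h post-IR. These comparisons share arrays with the one above and with each other, so their values are given side by side and not as independent evidence. Against Vehicle, 8 probe sets were called in VPA kidneys (1 higher, 7 lower, 0.0548% of those tested) and 25 in Dex kidneys (21 higher, 4 lower, 0.171%). Without Vehicle animal 1 these counts were 27 and 39, and with VPA animals 1 and 3 left out the count for VPA was 1. Of the 59 probe sets called lower in VPA than in Dex, 17 were called higher in Dex than in Vehicle. Of the 63 called in all, 3 were called lower in VPA than in Vehicle. Among the 59, the mean was below Vehicle in VPA for 56 and above Vehicle in Dex for 57. The Vehicle mean lay between VPA and Dex for 57 of the 63 (37.9% of all probe sets tested) and nearer VPA for 48 (45.8%). The 63 were chosen for a difference between VPA and Dex in these same arrays. A Vehicle mean between the groups follows in part from that choice, and the shares over all probe sets are not a like background. For Gal the log2 difference from Vehicle was -0.29 in VPA (adjusted p = 0.94) and 2.73 in Dex (adjusted p = 0.0039). For Relt it was -0.59 in VPA (adjusted p = 0.41) and 2.12 in Dex (adjusted p = 7.6e-06), and for Nppc 0.03 in VPA (adjusted p = 0.99) and 2.31 in Dex (adjusted p = 5.9e-05). For Amd1 it was -0.03 in VPA (adjusted p = 0.98) and 1.25 in Dex (adjusted p = 1.2e-07). In these 4 genes Dex differed from Vehicle past the threshold and VPA did not. Prex2 moved on both sides, by -0.65 in VPA (adjusted p = 0.02) and 0.70 in Dex (adjusted p = 0.0087). The opposite case was Csrp3, a LIM protein of striated muscle, with signals of 11.1, 28.5, 18.5, 21.4 and 41 in VPA kidneys, 74, 75, 101 and 61.1 in Dex kidneys, and 23.2, 85.7, 114, 89.6 and 85.2 in Vehicle kidneys. It was lower in VPA than in Dex (-1.26 ± 0.22 SE, adjusted p = 0.00066) and than in Vehicle (-1.19, adjusted p = 0.0049), while Dex and Vehicle differed by 0.06 (adjusted p = 1). With VPA animals 1 and 3 left out the VPA minus Dex difference of Csrp3 was -1.03 (adjusted p = 0.051). Lipe, hormone-sensitive lipase, had 120, 101, 194, 102 and 132 in VPA kidneys and 577, 326, 209 and 253 in Dex kidneys (-1.22 ± 0.31 SE, adjusted p = 0.029), with -1.32 for VPA against Vehicle (adjusted p = 0.022). Lipe is also an adipocyte gene, and the sum of 14 adipocyte markers was 3320 to 5360 in VPA kidneys and 3620 to 13500 in Dex kidneys. The part of fat tissue in this result was not tested, and the call was lost without any 1 of Dex animals 1, 2 and 4 or VPA animals 1, 2 and 4, and with VPA animals 1 and 3 left out (-1.39, adjusted p = 0.073).

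Of 32 glucocorticoid receptor targets measured (35 listed), 30 had a lower mean in VPA than in Dex, beside 40% of all genes, and the median difference was -0.74, beside 0.05 over all genes. Among 30 targets tested 6 were called, all lower, beside 0.404% called lower of all probe sets tested. Their sum was 20000, 29700, 21500, 30700 and 33200 in VPA kidneys, against 42100, 38700, 44300 and 41200 in Dex kidneys, so all VPA animals lay below all Dex animals. Tsc22d3 (GILZ), an anti-inflammatory mediator of glucocorticoids, had 300, 469, 595, 562 and 453 in VPA kidneys, against 1040, 1240, 1080 and 1290 in Dex kidneys, with 336 to 635 in Vehicle kidneys (log2 difference VPA minus Dex -1.29 ± 0.28 SE, adjusted p = 0.0073, limma). Fam107a, an actin-associated stress gene outside the rule for naming, had 142 to 202 in VPA kidneys and 390 to 484 in Dex kidneys (-1.26 ± 0.22 SE, adjusted p = 0.00052). Nfkbia, the inhibitor of NF-kB, had 393 to 738 in VPA kidneys and 1100 to 1180 in Dex kidneys (-1.01 ± 0.20 SE, adjusted p = 0.0025). Ddit4 (REDD1), which restrains mTORC1, had 142, 932, 264, 664 and 375 in VPA kidneys and 1140, 1060, 796 and 1100 in Dex kidneys (-1.34 ± 0.31 SE, adjusted p = 0.015). Zfp36 (tristetraprolin), which marks cytokine mRNAs for decay, had 398, 1330, 208, 1410 and 1310 in VPA kidneys and 2060, 1850, 2410 and 1900 in Dex kidneys (-1.46 ± 0.35 SE, adjusted p = 0.018). Gadd45g, a growth arrest gene, had 317, 1170, 168, 1010 and 931 in VPA kidneys and 1830, 1400, 1480 and 1770 in Dex kidneys (-1.46 ± 0.36 SE, adjusted p = 0.023). In Zfp36 and Gadd45g the values of VPA animals 1 and 3 were far below those of the other VPA animals. Nfkbia, Ddit4, Zfp36 and Gadd45g each lost the call without VPA animal 1, VPA animal 3 or Dex animal 4, and without 1 or 2 other Dex animals. Their differences with VPA animals 1 and 3 left out were -0.76 (adjusted p = 0.14), -0.71 (adjusted p = 0.55), -0.59 (adjusted p = 0.65) and -0.63 (adjusted p = 0.68), in that order. With both left out, Fam107a alone of the list was called, the median was -0.45, and 27 of 32 targets had a lower mean in VPA.

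Other classical targets did not pass. Fkbp5, a co-chaperone of the receptor, had 701, 450, 710, 389 and 705 in VPA kidneys and 1210, 1130, 1410 and 1310 in Dex kidneys (log2 difference -1.12 ± 0.35 SE, adjusted p = 0.12, limma), with no overlap of the groups. Per1, a clock gene, had 416 to 1030 in VPA kidneys and 1370 to 1710 in Dex kidneys (-0.99 ± 0.29 SE, adjusted p = 0.076). Sgk1, a kinase that raises sodium transport, had 1960 to 3110 in VPA kidneys and 3460 to 4170 in Dex kidneys (-0.51 ± 0.20 SE, adjusted p = 0.30). Errfi1, a feedback inhibitor of the EGF receptor, had -0.78 (adjusted p = 0.12), and Mt1, a metallothionein, -0.26 (adjusted p = 0.79). For the same list the median was -0.18 for VPA against Vehicle, with 0 of 30 called, and 0.51 for Dex against Vehicle, with 2 called. Both calls in Dex were higher.

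The immediate-early genes showed the split inside the VPA group. VPA animals 1 and 3 were singled out by the sum of these same genes. What leaving both out does to this list follows from that choice and is not added evidence. Atf3, a stress transcription factor, had 166, 2500, 220, 3210 and 3630 in VPA kidneys, against 2740, 2690, 4210 and 3000 in Dex kidneys, 1190 to 3310 in Vehicle kidneys and 51.1 to 126 in naïve kidneys (log2 difference VPA minus Dex -1.57 ± 0.66 SE, adjusted p = 0.36, limma). VPA animals 1 and 3 were near the naïve range and VPA animals 2, 4 and 5 overlapped Dex. Jun had 439, 2690, 443, 3110 and 2090 in VPA kidneys and 3580, 3430, 2980 and 3040 in Dex kidneys (adjusted p = 0.093), and Egr1 had 269, 2900, 272, 3130 and 2810 in VPA kidneys and 2950, 3100, 3970 and 2620 in Dex kidneys (adjusted p = 0.21). Of 35 such transcription factors measured, 32 had a lower mean in VPA, beside 40% of all genes, and the median was -0.61, beside 0.05. Of 31 tested Klf2 alone was called, beside 0.404% called lower of all probe sets tested. Klf2, a flow-responsive factor of endothelium, had 68.8, 153, 101, 94 and 101 in VPA kidneys and 190, 267, 218 and 275 in Dex kidneys (log2 difference -1.10 ± 0.17 SE, adjusted p = 1e-04). With VPA animals 1 and 3 left out the list's median was -0.04, 21 of 35 had a lower mean, none was called, and Klf2 had -0.95 (adjusted p = 0.0096), short of 2-fold. The differences of Atf3, Jun and Egr1 were then -0.01, -0.32 and -0.08.

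All 16 MAP kinase phosphatases and related feedback genes measured had a lower mean in VPA, beside 40% of all genes. The median was -0.62, beside 0.05 over all genes, and 0 of 14 tested were called, beside 0.431% of all probe sets tested. Dusp1, which is also a glucocorticoid target, had 673, 2690, 872, 2910 and 2580 in VPA kidneys and 3060, 2800, 3250 and 2670 in Dex kidneys (log2 difference -0.83 ± 0.31 SE, adjusted p = 0.25, limma). Dusp6 had -0.72 (adjusted p = 0.39). Without the fold threshold 2 members, named after their values were seen, passed, Dusp16 (-0.75, adjusted p = 0.0024) and Spry1 (-0.79, adjusted p = 0.0045). With VPA animals 1 and 3 left out neither passed (-0.58, adjusted p = 0.13 for Dusp16 and -0.53, adjusted p = 0.27 for Spry1), the median was -0.15 and 10 of 16 were lower.

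**Figure D4:**
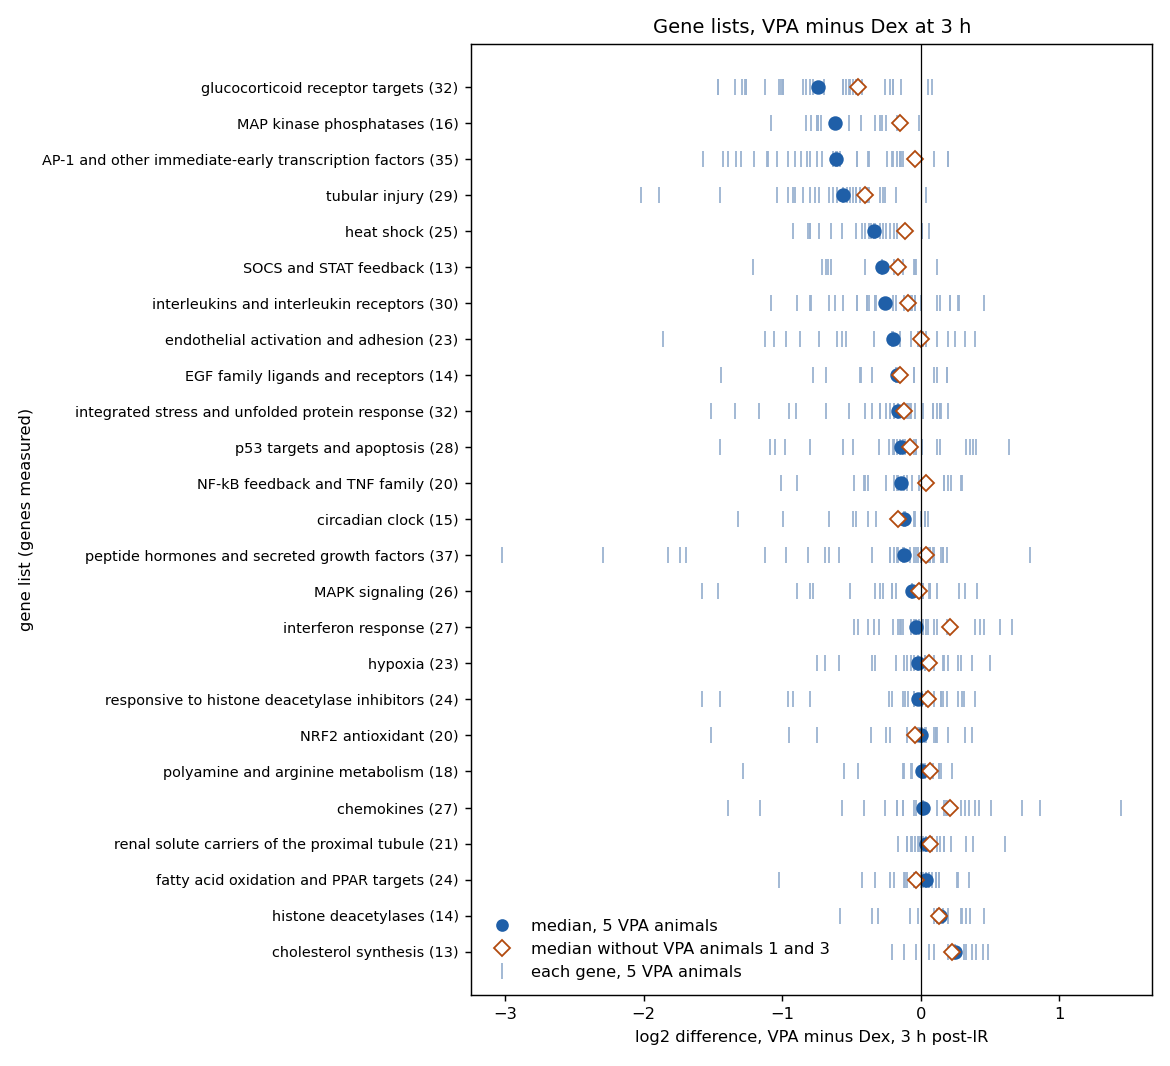
Each row is a gene list with the number of genes measured in brackets; ticks are the log2 differences of its genes between VPA and Dex kidneys, filled circles the median over 5 VPA animals and open diamonds the median with VPA animals 1 and 3 left out. The median of the immediate-early transcription factors moves to -0.04 from -0.61 when both are left out, and that of the glucocorticoid receptor targets to -0.45 from -0.74. Both animals were singled out by the immediate-early list, so the move of that list follows from the choice.

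Heat shock genes were also lowest in VPA animals 1 and 3, but above the naïve level. The summed signal of 25 heat shock genes was 31700, 52200, 40200, 59600 and 49900 in VPA animals 1 to 5, against 56600 to 61300 in Dex animals, 44400 to 57000 in Vehicle animals and 22300 to 24600 in naïve animals. Hspb1 (a small heat shock protein) had 709, 3470, 1770, 3480 and 2310 in VPA kidneys, against 3600, 3530, 3540 and 3610 in Dex kidneys, 3330 to 3850 in Vehicle kidneys and 185 to 752 in naïve kidneys (log2 difference VPA minus Dex -0.80 ± 0.41 SE, adjusted p = 0.52, limma). The probe sets for Hspa1b also match its near-identical neighbor Hspa1a, and the 2 of them had adjusted p = 0.60 and 0.86. Of 25 heat shock genes measured, 22 were lower on average in VPA, beside 40% of all genes. The median was -0.34, beside 0.05 over all genes, and 0 of 22 tested were called, beside 0.431% of all probe sets tested. Dnajb4, a co-chaperone named after its values were seen, passed without the fold threshold (-0.92, adjusted p = 0.017), though not with VPA animals 1 and 3 left out (-0.53, adjusted p = 0.54). With both left out the list's median was -0.11. Hmox1, heme oxygenase 1, overlapped between the groups, with 344 to 636 in VPA kidneys and 448 to 746 in Dex kidneys (-0.25 ± 0.40 SE, adjusted p = 0.95).

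Of 29 tubular injury markers measured, 28 had a lower mean in VPA than in Dex, beside 40% of all genes. The median was -0.56, beside 0.05 over all genes. Of 29 markers tested Cdkn1a was the 1 called, beside 0.404% called lower of all probe sets tested. Their sum was 12000, 17700, 11900, 18100 and 18000 in VPA kidneys, against 24700, 19600, 27300 and 25200 in Dex kidneys, 11700 to 24700 in Vehicle kidneys and 7640 to 12100 in naïve kidneys. All VPA animals lay below all Dex animals. The same held for other lists, among them the MAP kinase phosphatases, with sums of 4680 to 10300 in VPA and 10600 to 12600 in Dex kidneys. Cdkn1a (p21), which stops the cell cycle, had 228, 417, 185, 470 and 679 in VPA kidneys and 926, 948, 1000 and 1140 in Dex kidneys (log2 difference -1.45 ± 0.39 SE, adjusted p = 0.046, limma), and lost its call without any 1 of the Dex animals or of VPA animals 1, 2 and 3. Havcr1 had 122, 244, 17.3, 209 and 440 in VPA kidneys and 422, 626, 728 and 660 in Dex kidneys, and 93 to 724 in Vehicle kidneys (-1.89 ± 1.02 SE, adjusted p = 0.58). Lcn2 had 111, 257, 115, 243 and 332 in VPA kidneys and 789, 549, 1210 and 937 in Dex kidneys, with 208 to 574 in Vehicle kidneys (-2.02 ± 0.73 SE, adjusted p = 0.23). Lcn2 did not overlap between VPA and Dex, but the SE, which is shared by all 46 arrays, was large. Clu, a secreted chaperone of injured tubules, had -0.92 ± 0.49 SE (adjusted p = 0.57). With VPA animals 1 and 3 left out the list's median was -0.40, 27 of 29 were lower and none was called, with Cdkn1a at -0.95 (adjusted p = 0.62).

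Inflammatory signaling genes were mostly short of the threshold. Called lower were 1 of 8 SOCS and STAT feedback genes tested (list median -0.28) and 1 of 22 interleukins and their receptors (-0.26). Of NF-kB feedback genes 1 of 16 tested was called lower (-0.14), and of endothelial activation genes 2 of 21 (-0.2). Of all probe sets tested, 0.404% were called lower. With VPA animals 1 and 3 left out none of these lists held a call. Socs1, which damps cytokine signals, had 41.1, 175, 68.8, 106 and 209 in VPA kidneys and 183, 321, 260 and 307 in Dex kidneys (log2 difference -1.21 ± 0.30 SE, adjusted p = 0.028, limma). Il6r, the interleukin 6 receptor, had 46.1 to 110 in VPA kidneys and 149 to 214 in Dex kidneys (-1.08 ± 0.24 SE, adjusted p = 0.011). Both lost their calls without VPA animal 1 or VPA animal 3, and Socs1 also without Dex animal 2, 3 or 4, and with both VPA animals out they were -0.68 for Socs1 (adjusted p = 0.62) and -0.75 for Il6r (adjusted p = 0.37). Il6 itself had 31.7, 96.8, 13.3, 92.1 and 59.1 in VPA kidneys and 48.1, 57.5, 67.7 and 39.1 in Dex kidneys (-0.04 ± 0.35 SE, adjusted p = 0.99). Of 27 chemokines measured none was called, and the median was 0.02. Ccl2, which draws monocytes, had 1080, 1130, 1890, 1740 and 1200 in VPA kidneys and 790, 333, 935 and 231 in Dex kidneys (1.45 ± 0.61 SE, adjusted p = 0.36), without overlap, while Vehicle animals ranged over 302 to 2890 and naïve animals over 181 to 2870. Thbd, thrombomodulin of the vessel wall, had 121, 281, 90.9, 189 and 356 in VPA kidneys and 284, 456, 489 and 496 in Dex kidneys (-1.12 ± 0.25 SE, adjusted p = 0.011). Its call was lost without VPA animal 1 or 3, without Dex animal 2, 3 or 4, and with VPA animals 1 and 3 left out (-0.63, adjusted p = 0.48). Apold1, an early gene of endothelium, had 106, 278, 110, 305 and 381 in VPA kidneys and 700, 843, 905 and 774 in Dex kidneys (-1.86 ± 0.34 SE, adjusted p = 0.00093).

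Among 28 genes of p53 targets and apoptosis measured, of which 22 were tested, 3 were called, all lower (beside 0.404% of all probe sets tested), and the median was -0.14. Leaving out VPA animals 1 and 3 gave 0 calls in this list by limma and a median of -0.08. Beside Cdkn1a these were Tp53inp1, an autophagy and cell death regulator, with 468 to 657 in VPA kidneys and 1000 to 1300 in Dex kidneys (log2 difference -1.09 ± 0.18 SE, adjusted p = 0.00016, limma), and Sesn1, a leucine-sensing inhibitor of mTORC1, with 290 to 341 in VPA kidneys and 618 to 732 in Dex kidneys (-1.05 ± 0.22 SE, adjusted p = 0.0045). Tp53inp1 was then short of 2-fold (-0.95, adjusted p = 0.015) and Sesn1 short of significance (-1.02, adjusted p = 0.062). Vehicle animals 1 to 5 had 602, 469, 442, 456 and 511 of Tp53inp1, within or just below the VPA range, and 544, 259, 240, 274 and 205 of Sesn1, of which animal 1 lay between VPA and Dex and the others below VPA. Bcl2, an inhibitor of apoptosis, had 81.3 to 170 in VPA kidneys and 68 to 102 in Dex kidneys (0.40 ± 0.23 SE, adjusted p = 0.63). Nfil3, a repressor tied to the clock, had 125, 388, 136, 487 and 687 in VPA kidneys and 714, 820, 777 and 777 in Dex kidneys (-1.32 ± 0.35 SE, adjusted p = 0.046). It was the 1 called among 15 clock genes measured (14 tested), beside 0.404% called lower of all probe sets tested. Without VPA animals 1 and 3 Nfil3 had -0.59 (adjusted p = 0.77).

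Few genes were higher in VPA. Gdf11, a secreted factor of the TGF-beta family, had 175, 131, 282, 132 and 145 in VPA kidneys, against 96, 50.1, 58.3 and 53 in Dex kidneys, 84.6 to 130 in Vehicle kidneys and 128 to 171 in naïve kidneys (log2 difference VPA minus Dex 1.21 ± 0.19 SE, adjusted p = 6e-05, limma). VPA kidneys thus lay near the naïve level of Gdf11 and Dex kidneys below it. Gdf11 was short of 2-fold with VPA animals 1 and 3 left out (0.95, adjusted p = 0.0086). Zcchc12, a zinc finger coactivator, had 76.7, 69.1, 92.8, 127 and 114 in VPA kidneys, 49.4, 28.6, 36.3 and 38.3 in Dex kidneys, 22.5 to 55.7 in Vehicle kidneys and 12.6 to 24 in naïve kidneys (1.03 ± 0.20 SE, adjusted p = 0.002). It was the 1 probe set called higher in VPA than in Vehicle (1.04, adjusted p = 0.0049), and stayed called against Dex without VPA animals 1 and 3 (1.12, adjusted p = 0.011), but not without VPA animal 4, VPA animal 5 or Dex animal 2. Unc13a, which primes synaptic vesicles, had 240, 99.6, 245, 127 and 208 in VPA kidneys and 77.5, 87.6, 80.2 and 70.7 in Dex kidneys (1.00 ± 0.21 SE, adjusted p = 0.0053), at the edge of the fold threshold. Its call was lost without VPA animal 1, 3 or 5 or Dex animal 1 or 4, and with VPA animals 1 and 3 left out (0.71, adjusted p = 0.27). The fourth was a probe set with no symbol. Without the fold threshold Abhd8 (0.90, adjusted p = 0.0016), Sv2a, a synaptic vesicle protein (0.84, adjusted p = 0.0045), Eno2, neuron-specific enolase (0.80, adjusted p = 0.018), Eml5 (0.79, adjusted p = 0.0045), Zfp385a (0.77, adjusted p = 0.032), Ift22, of intraflagellar transport (0.72, adjusted p = 0.0021), and Mllt3, of the super elongation complex (0.72, adjusted p = 0.029), were also higher. Their differences without VPA animals 1 and 3 were 0.38 (Mllt3, adjusted p = 0.65) to 0.80 (Eno2, adjusted p = 0.12), and none of these 7 passed by limma.

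Of 26 genes listed as responsive to histone deacetylase inhibitors in other cells, 24 were measured, with a median of -0.02. Their summed signal was 5890 to 8980 in VPA kidneys, 9590 to 11200 in Dex kidneys and 6880 to 9820 in Vehicle kidneys. The sums of VPA and Dex animals did not overlap, as in the glucocorticoid target and tubular injury lists. Among 20 tested, 0 were called higher and 1, Cdkn1a, lower, beside 0.0274% and 0.404% of all probe sets tested. At such shares a list of this size would mostly hold 0 called higher, so that count says little about the list. Inhibitors of these enzymes are known to raise Cdkn1a in cultured cells. Back-transformed mean signals of Cdkn1a were 357 in VPA, 1000 in Dex, 515 in Vehicle and 97.8 in naïve kidneys. Cdkn1a in VPA did not pass against Vehicle (-0.51, adjusted p = 0.72, limma). It was above naïve kidneys (1.71, adjusted p = 0.0011, limma), which differ in surgery as well. Gadd45b of the same list had 190, 1110, 195, 1230 and 1540 in VPA kidneys and 1800, 1680, 2090 and 1870 in Dex kidneys (log2 difference -1.58 ± 0.43 SE, adjusted p = 0.053, limma). The 14 histone deacetylases measured had a median of 0.14, with none of 8 tested called. Hdac3 (0.36 ± 0.14 SE) and Hdac6 (0.33 ± 0.15 SE) varied too little over the series to be tested, and Sirt1 had -0.35 ± 0.16 SE (adjusted p = 0.45).

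The arrays measure whole kidney RNA, in which fewer cells of a type and less RNA per cell cannot be told apart. The sum of 17 endothelial markers was 5520 to 6750 in VPA kidneys and 7290 to 9430 in Dex kidneys, with no overlap (Vehicle 6440 to 8490, naïve 7230 to 8400). None of 13 tested was called. Of the 17 measured, 13 had a lower mean in VPA, beside 40% of all genes, and the median was -0.16. With VPA animals 1 and 3 left out these values were 11 and -0.27. Ehd3 (-0.99, adjusted p = 0.022, limma) and Ptprb (-0.73, adjusted p = 0.022), named after their values were seen, passed without the fold threshold, but not with VPA animals 1 and 3 left out (-1.10, adjusted p = 0.073 for Ehd3 and -0.66, adjusted p = 0.24 for Ptprb). Pecam1 had no probe set of its own symbol here. Notch4, Apold1, Edn1, Klf2 and Thbd are endothelial genes by background knowledge, and the part of endothelial content in their differences was not tested. They are called genes and not members of that marker list. Apold1 and Thbd belong to a list of 23 genes of endothelial activation. Its sum overlapped, with 5460 to 11800 in VPA kidneys and 9980 to 11800 in Dex kidneys, and its median was -0.2, or 0 with VPA animals 1 and 3 left out. The sum of 21 neutrophil markers was 569 to 1130 in VPA kidneys and 1290 to 2030 in Dex kidneys, without overlap (Vehicle 1260 to 1820, naïve 564 to 659). It included Lcn2, which tubules also make. The signals of Lcn2, given above, made up much of the sum in Dex kidneys and most of its gap from VPA kidneys. None of 18 neutrophil markers tested was called, and 13 of 21 measured had a lower mean in VPA, beside 40% of all genes. Their median was -0.07, or 0.07 with VPA animals 1 and 3 left out. The sum of 8 red blood cell genes was 3720 to 8400 in VPA kidneys and 6940 to 8730 in Dex kidneys. The proximal tubule list had 0 of 15 called and a median of 0.02.

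The difference between VPA and Dex was also fitted in the separate animals of 24 h and of 120 h after reperfusion. At 24 h 48 probe sets were called (25 higher, 23 lower, 0.329% of those tested), and at 120 h none by limma at the same thresholds, with 78 at 2-fold and an unadjusted p under 0.05. Of the 63 probe sets called at 3 h, which were chosen for their difference at 3 h, 42 (66.7%) had the same direction at 24 h and 34 (54%) at 120 h, beside 41.9% and 57.9% of all probe sets tested. The share at 120 h was near that of all probe sets. The median of the 59 that were lower at 3 h was -1.29 at 3 h, -0.16 at 24 h and -0.02 at 120 h. Gal and Col11a1, a fibrillar collagen named after its values were seen, were the 2 called again at 24 h. Gal had -3.02 ± 0.53 SE at 3 h, -2.80 ± 0.50 SE at 24 h (adjusted p = 0.0088) and -0.17 ± 0.56 SE at 120 h (adjusted p = 1). Col11a1 had -1.20 at 3 h, -1.24 at 24 h (adjusted p = 0.0099) and -0.41 at 120 h. Tp53inp1 passed at 24 h without the fold threshold (-0.71, adjusted p = 0.037).

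The change of the difference itself was tested as an interaction. Between 3 h and 24 h it was called for 38 probe sets (0.26% of those tested), 36 of them more negative at 3 h, and between 3 h and 120 h for 23 (0.157%), 22 of them more negative at 3 h. Of the 63, 17 were among the first and 19 among the second. Leaving out single arrays gave 18 to 106 calls for the first, the highest without Dex animal 1 of 24 h, and 11 to 26 for the second, the lowest without Dex animal 1 of 120 h. Relt had -2.70 at 3 h and 0.90 at 24 h (adjusted p = 0.089), with an interaction of -3.61 (adjusted p = 7.5e-08). Amd1 had 0.02 at both later times, with interactions of -1.30 (adjusted p = 7.7e-05) and -1.31 (adjusted p = 0.00045). Prex2 had 0 at 24 h and -0.15 at 120 h, with interactions of -1.35 (adjusted p = 0.00021) and -1.21 (adjusted p = 0.0032). For Gal the interaction with 24 h was -0.23 (adjusted p = 0.91), and for 120 h it was -2.86 (adjusted p = 0.15).

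**Figure D5:**
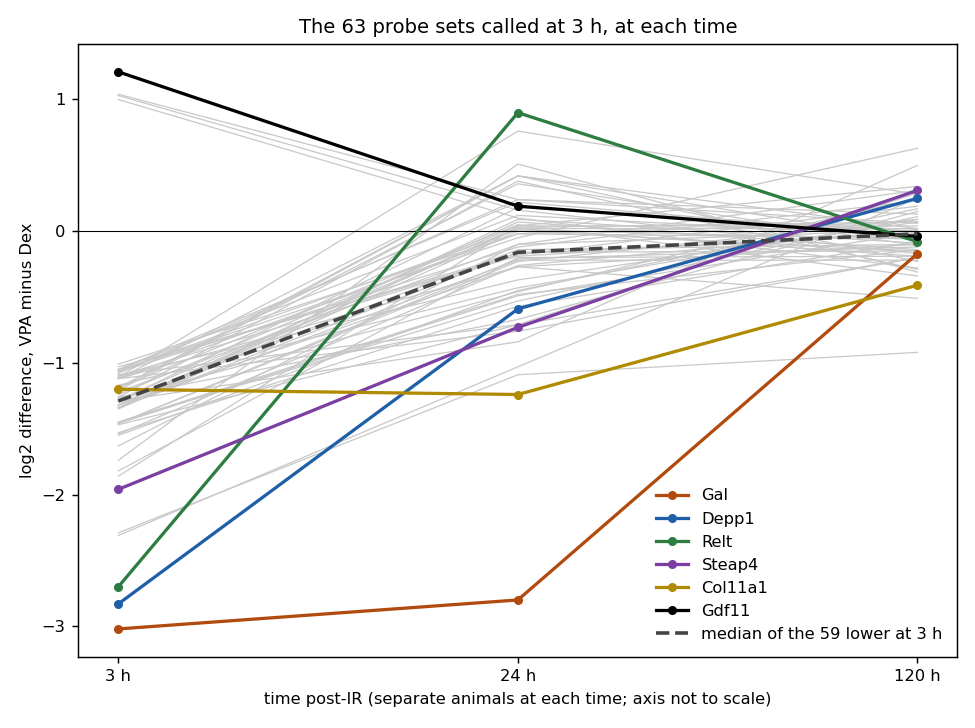
Lines join the log2 difference between VPA and Dex of each of the 63 probe sets called at 3 h, over 3 times after reperfusion (separate animals at each; the x axis is not to scale), with 6 genes colored. The dashed median of the 59 lower probe sets is -1.29 at 3 h and -0.16 at 24 h, while Gal stays at -2.80 and Col11a1 at -1.24 at 24 h.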

How the data were processed

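Each of 46 rats gave 1 kidney RNA sample, hybridized to its own Rat Gene 1.1 ST microarray (Affymetrix). The authors deposited an intensity per probe set on a linear scale, summarized and normalized between arrays with iterPLIER in Expression Console (version 1.1), with no logarithm and no offset. From these deposited intensities log2(signal + 16) was computed, as the study's methods describe, and a linear model with 10 groups was fitted over all 46 arrays in limma 3.58.1 (R 4.3.3), with 36 residual and 4.44 prior degrees of freedom. The lower 50% of probe sets by SD was removed, p-values were adjusted over the 14607 left, and calls needed a change of 2-fold and an adjusted p under 0.05. The methods used an analysis of variance, run here as an alternative. The fit was tested on simulated data. The study's methods say that some arrays failed quality control and were excluded. The labels do not mark which, so all 46 were used and failed arrays may be among them. Arrays were mapped by title, p-values measure the spread between animals, and the number of arrays limits the precision.

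Genes were named from the platform annotation: of 29214 probe sets 18644 had 1 symbol, 962 several and 9608 none, and a gene was represented by its brightest probe set. Mean signals are back-transformed from the log2 scale, SE is that of the fit, and a fold on the log2(signal + 16) scale understates the change of dim genes. Named were up to 20 called genes with the largest change in each direction, filled to 10 without the fold threshold, up to 4 called members and examples among the 3 brightest uncalled members of each of 39 gene lists, and a fixed set of injury and glucocorticoid genes. The comparison and the lists were chosen with earlier results of these data known. Promoter windows were read in Python 3.11.15 and figures drawn with matplotlib. Which of the array plates held each animal is not given in the sources used here, so a plate could not be fitted as a block. Replicate numbers did not pair animals of the 2 groups, and 13 alternatives and each of 9 arrays left out were tried, plus VPA animals 1 and 3 left out together, added after seeing the data.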

Additional observations from a re-analysis of the deposited data

Results flagged for a closer look

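The difference between VPA and Dex changed with time, by the interaction term of the limma fit over all 46 arrays, for the following genes named in the text. Between 3 h and 24 h the difference at 3 h less that at 24 h was -2.24 for Depp1 (adjusted p = 0.031), -3.61 for Relt (adjusted p = 7.5e-08), -2.25 for Edn1 (adjusted p = 0.0011), -1.53 for Lmntd1 (adjusted p = 0.031), -1.35 for Prex2 (adjusted p = 0.00021), -1.18 for Notch4 (adjusted p = 0.047), -1.64 for Csrp3 (adjusted p = 0.0059), -1.30 for Amd1 (adjusted p = 7.7e-05), -1.27 for Sesn1 (adjusted p = 0.044), -1.46 for Gata6 (adjusted p = 0.0011) and 1.11 for Sv2a (adjusted p = 0.023). Between 3 h and 120 h the difference at 3 h less that at 120 h was -3.08 for Depp1 (adjusted p = 0.0032), -2.62 for Relt (adjusted p = 0.00045), -2.27 for Steap4 (adjusted p = 0.0027), -1.65 for Lmntd1 (adjusted p = 0.032), -1.45 for Tent5b (adjusted p = 0.018), -1.21 for Prex2 (adjusted p = 0.0032), -1.80 for Tsc22d3 (adjusted p = 0.045), -1.29 for Klf2 (adjusted p = 0.011), -1.31 for Amd1 (adjusted p = 0.00045), -1.38 for Tp53inp1 (adjusted p = 0.0066), -1.41 for Fam107a (adjusted p = 0.046), -1.28 for Gata6 (adjusted p = 0.016), -1.02 for Ppcs (adjusted p = 0.024) and 1.25 for Gdf11 (adjusted p = 0.028). A negative value means that VPA lay further below Dex at 3 h. Most of these genes were chosen for their difference at 3 h.

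In 9 of 148 groups of named genes 1 animal lay far from the others, by the gap to its nearest neighbor as a share of the range of the group; chance gives such a gap in about 1 of 20 groups. Nppc had 163 in Dex animal 3, against 306 to 347 in the other Dex animals. Wfdc16 had 10.8 in VPA animal 1, against 33.1 to 41.6 in the other VPA animals. Thbd had 284 in Dex animal 1, against 456 to 496 in the other Dex animals. Zfp385a had 56.7 in Dex animal 3, against 37.5 to 38.9 in the other Dex animals. Mllt3 had 145 in Dex animal 4, against 193 to 199 in the other Dex animals. Dnajb4 had 2710 in Dex animal 3, against 2140 to 2170 in the other Dex animals. Hdac6 had 629 in VPA animal 5, against 495 to 522 in the other VPA animals. Sirt1 had 587 in Dex animal 2, against 697 to 717 in the other Dex animals. Ptprb had 387 in VPA animal 1, against 460 to 487 in the other VPA animals.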

How the results depend on the processing

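Of the 63 calls between VPA and Dex at 3 h, none reversed under any alternative or with any array left out, 33 were kept without any 1 array, and 13 were kept under all 13 other settings and every single array left out, 9 of them also with VPA animals 1 and 3 left out together. The count was 180 without the fold threshold, 120 with unadjusted p-values, 31 with an offset of 64 and 28 with VPA animals 1 and 3 left out. Other settings gave 59 to 87. Single arrays left out gave 42 to 84. VPA against Vehicle (8 calls) gave 13 after quantile normalization, 0 with the 2 groups alone, 16 with array weights, 14 with an offset of 1, 5 with an offset of 64, 60 without the fold threshold, 61 with unadjusted p-values, 3 with only the 3 h and naïve groups, 1 with both VPA animals left out, and 3 to 27 with single arrays left out (27 without Vehicle animal 1, 19 without VPA animal 2, 17 without Vehicle animal 4, 3 without Vehicle animal 5, 4 without VPA animal 1, 5 without VPA animal 3). The count of 0 is from limma, and 54 passed there at 2-fold and an unadjusted p under 0.05. The estimate of the array weights stopped before it converged. Dex against Vehicle (25) gave 14 with the 2 groups alone, 60 with array weights, 14 with an offset of 64, 89 without the fold threshold, 57 with unadjusted p-values, and 18 to 39 with single arrays left out (39 without Vehicle animal 1). The change of the difference between 3 h and 24 h (38) gave 23 over all probe sets, 23 with the analysis of variance, 113 with the 4 groups alone, 347 with array weights, 20 with an offset of 1, 19 with an offset of 64, 488 with unadjusted p-values, 10 with both VPA animals left out, and 18 to 106 with single arrays left out; each of 10 arrays moved it by over 1.5 times, among them VPA animals 1 and 3 and Dex animal 4 of 3 h (18, 24 and 18) and, of 24 h, Dex animals 1, 2 and 4 (106, 24 and 24) and VPA animals 1 to 4 (22, 61, 23 and 20). That between 3 h and 120 h (23) gave 90 with array weights, 10 with an offset of 1 or 64, 188 with unadjusted p-values, 8 with both VPA animals left out, and 11 to 26 with single arrays left out (12 and 15 without VPA animals 1 and 3 and 14 and 13 without Dex animals 2 and 4 of 3 h; 14 without VPA animal 3 and 11, 14 and 13 without Dex animals 1, 3 and 4 of 120 h). The cause of these shifts was not tested. With both VPA animals left out, the medians of 11 of 39 gene lists changed sign. Those that turned positive, or to 0, were of genes responsive to histone deacetylase inhibitors (0.05), peptide hormones (0.04), NF-kB feedback (0.04), hypoxia (0.06), interferon response (0.21), endothelial activation (0), neutrophil markers (0.07) and muscle markers (0.06), and those that turned negative were of urothelium markers (-0.07), fatty acid oxidation (-0.03) and NRF2 genes (-0.04). Without single arrays the median of the first ranged over -0.09 to 0.07, that of muscle markers over -0.13 to 0.03 (0.03 without Dex animal 4) and that of adipocyte markers over -0.56 to 0.12 (0.12 without Dex animal 1).

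With the replicate number as a block, 78 probe sets were called between VPA and Dex, 62 of the 63 among them. Deviations of same-numbered VPA and Dex animals from their group means correlated at 0.05, 0.04, 0.14 and 0.01, so the numbers were not taken as pairs. Signals below the lower quartile of an array (26.2 to 33.3 in VPA kidneys, 25.8 to 28.9 in Dex kidneys) limit the differences of dim genes such as Gal and Relt.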

Other observations

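Interferon response genes and chemokines were not called at 3 h by limma (0 of 27 and 0 of 25 tested). Of 27 interferon response genes measured, 15 had a lower mean in VPA than in Dex kidneys, beside 40% of all genes, with a median of -0.03. With VPA animals 1 and 3 left out 4 were lower and the median was 0.21. Genes of cholesterol synthesis had a median of 0.25 over 13 measured, with 3 lower in VPA, beside 40% of all genes. The median was 0.23 with both animals left out, and none of 5 tested was called.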
